A study of Mus musculus with 16 samples.

Results

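Prg4, Has1, Has2, Cd44, Tnfaip6 and Vcam1 are genes by which the synovial lining lubricates the joint, makes and holds hyaluronan, and displays adhesion molecules. These 6 genes were chosen by symbol, with no threshold on a measured value, and all 6 were found among the 13733 genes listed for mouse knee joint cells. All 6 were also among the 13173 genes tested, those reaching 1 CPM in 4 or more libraries. CPM is the number of reads on a gene scaled to a common library size. Group values are means ± SD with n = 4 mice.

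The data are bulk RNA-seq libraries from 16 mice, with 4 mice for each combination of genotype (WT or Trem2-/-) and time (D0 or D7). WT mice were C57BL/6 and Trem2-/- mice carried the C57BL/6J-Trem2em2Adiuj/J knockout of Trem2, a surface receptor of myeloid cells, in every cell from birth. D0 joints were uninjured, and D7 joints were taken 7 days after a single compression of the tibia that ruptured the anterior cruciate ligament of the right knee. The study's methods give male mice injured at 10 weeks of age, and the labels give both 10 weeks at injury and an age of 16 weeks. The methods describe cells released from the joint by enzymes, whereas the protocol in the labels describes homogenized joints, and whether CD45+ leukocytes were enriched is not stated. Nothing states that each library came from a separate mouse beyond the numbering, so p-values measure the spread between these libraries. Library depth ranged from 11567073 to 32867818 reads, and 3 reads corresponded to between 0.101 and 0.250 CPM, a limit that covers counting error only.

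Synovial fluid owes its slipperiness to lubricin, the mucin-like glycoprotein encoded by Prg4, and to hyaluronan, a very long unbranched sugar polymer. Lubricin is secreted by the fibroblasts of the synovial lining and by chondrocytes at the cartilage surface. Hyaluronan is spun out through the cell membrane by the synthases Has1, Has2 and Has3, is held at cell surfaces by its main receptor Cd44, and is modified by Tnfaip6 (also named TSG-6), a secreted protein that transfers heavy chains of inter-alpha-inhibitor onto it. Vcam1, an adhesion molecule of lining fibroblasts and activated endothelium, binds integrins of leukocytes.

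Among the 3 members for which a RefSeq promoter (GRCm38.p6) was at hand, the proximal upstream sequences of Tnfaip6 and Has1 are shown because each holds a consensus element of a signal-responsive factor, and because Tnfaip6 is a member whose level changed with injury in both genotypes. Capitals mark the matched element, and each sequence ends at the base before the more upstream of the RefSeq and GENCODE M21 starts.
Tnfaip6, chr2:52037863-52038008, + strand: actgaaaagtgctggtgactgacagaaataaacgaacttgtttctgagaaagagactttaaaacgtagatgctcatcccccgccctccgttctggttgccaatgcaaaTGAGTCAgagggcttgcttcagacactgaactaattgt
Has1, chr17:17855206-17855438, - strand: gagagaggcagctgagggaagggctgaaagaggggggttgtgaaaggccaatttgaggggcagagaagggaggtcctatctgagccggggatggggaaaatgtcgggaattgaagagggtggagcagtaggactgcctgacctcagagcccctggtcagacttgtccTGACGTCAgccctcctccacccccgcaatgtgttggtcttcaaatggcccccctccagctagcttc
The Tnfaip6 element TGAGTCA matches TGANTCA, the AP-1 consensus, and begins 142 bases before the RefSeq start and 38 bases before the GENCODE start. The Has1 element TGACGTCA, the cyclic AMP response element, begins 83 bases before the RefSeq start and 66 bases before the GENCODE start. Both strands of the window from 250 bases before to 50 bases after the RefSeq start were searched for these 2 elements, TATAAA and the NF-kB consensus of 10 letters. Of 32851 promoters of that length, 7.81% held TGANTCA, 1.79% held TGACGTCA, 13.6% held TATAAA and 4.51% held the NF-kB consensus. The Cd44 window held none of the 4 elements. A match describes the letters of the window and says nothing of binding in these joints.

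Trem2 itself was lower in the mice labelled Trem2-/-. At D7 WT mice had 16.8 ± 5.08 CPM and Trem2-/- mice 4.27 ± 0.644, with no overlap (log2 fold change -1.72, adjusted p = 0.0503 from limma). The D0 values were 4.56 ± 1.40 and 1.80 ± 0.713, with overlap. Levels of genes that mark cell types changed with injury. The 8 general fibroblast genes (Col1a1, Col1a2, Col3a1, Dcn, Lum, Pdgfra, Pdgfrb and Fbln1) summed to between 5218 and 49748 CPM in the 8 D0 mice and to between 74384 and 138989 CPM in the 8 D7 mice, and 6 of the 8 were called higher in each genotype. These sums are mostly collagen, as Col1a1, Col1a2 and Col3a1 averaged 39173.6, 24936.5 and 27591.1 CPM at WT D7. In WT mice Lum went from a mean of 560 to 1394 CPM, Pdgfra from 69.3 to 137 and Pdgfrb from 150 to 262. Dcn was 2667 CPM at WT D0 and 2764 at WT D7, and Fbln1 was 89.2 and 58.9. All 6 chondrocyte genes were called higher in each genotype. The 6 leukocyte genes, Ptprc among them, were all called lower at D7 in each genotype, and their sum went from 2284 to 5229 CPM at D0 to between 987 and 2751 CPM at D7. Macrophage genes went the other way, with 6 of 8 called higher in WT and 5 higher and 1 lower in Trem2-/- mice, and 3 of the 8 called lower in the knockout than in WT at D7. In that genotype comparison 5.72% of all genes tested were called in either direction. None of the 8 macrophage genes had an adjusted p-value under 0.05 from limma in it. Their sum ranged from 249 to 405 CPM in the D0 mice, 545 to 735 at WT D7 and 428 to 496 at Trem2-/- D7. No defining marker of these lists was at 0 in any library. In bulk libraries, fewer cells of a type and less RNA per cell cannot be told apart, and the part of this change in the members' results was not tested beyond the comparison with fibroblast genes given further on.

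The members spanned a wide range of abundance. On the scale of CPM per kilobase of exon, which allows genes of different length to be compared, Prg4 stood highest in each group, at 1140 ± 615 at WT D0 and 2395 ± 686 at Trem2-/- D7. Has2 stood lowest of the 6 in each group, at 3.75 ± 2.59 at WT D0 and 9.70 ± 1.18 at Trem2-/- D7. Prg4 ranked between 2 and 75 among all listed genes by CPM and took between 0.115% and 1.21% of the reads of a library. Tnfaip6 lay below Cd44 per kilobase in 8 of the 8 D0 mice, and above it in 3 of 4 WT D7 mice and 4 of 4 Trem2-/- D7 mice. The ratio of Tnfaip6 to Cd44 ranged from 0.321 to 0.885 at WT D0 and from 0.987 to 1.81 at WT D7. The range in Trem2-/- mice was 0.454 to 0.717 at D0 and 1.40 to 2.03 at D7. The levels of each gene by mouse are plotted first.

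**Figure D1:**
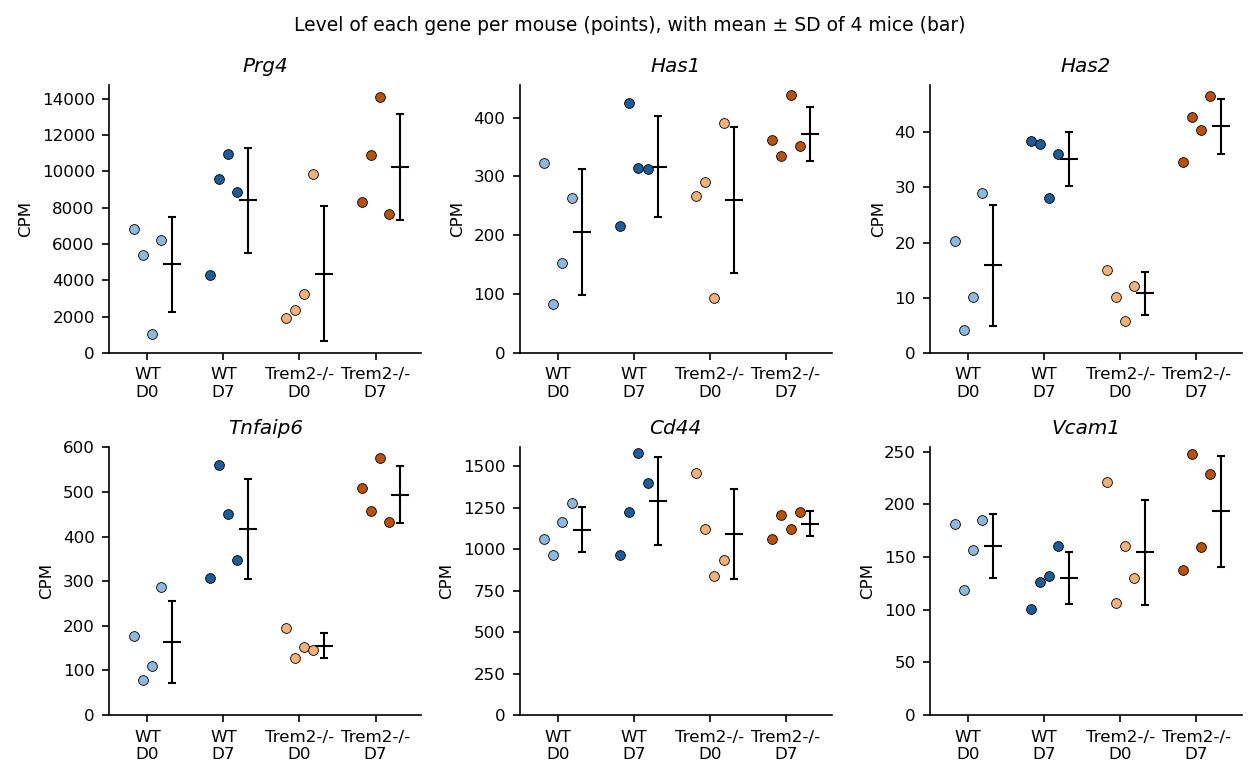
CPM (vertical axis, linear from 0) of the 6 genes in each of the 16 mice, by group; points are mice and bars the mean ± SD of 4 mice. Tnfaip6 separated D0 from D7 in both genotypes, Has2 did so in Trem2-/- mice, and a single Trem2-/- D0 mouse had 9874 CPM of Prg4. Of all genes tested, 12.9% were separated upward in WT and 26.1% in Trem2-/- mice.

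The comparison of D7 with D0 asked how joint injury changes these genes in each genotype. A gene was called when its unadjusted p-value from limma was under 0.05 and the size of its log2 fold change over 0.32, the rule of the study. In WT mice Tnfaip6 and Has2 were called higher, 2 of the 6 members, where 19.3% of all genes tested were called higher. In Trem2-/- mice Tnfaip6, Has2 and Prg4 were called higher, 3 of 6, where 26.5% of all genes were called higher. None was called lower in either genotype, a call that 18.2% of genes received in WT and 27.9% in Trem2-/- mice. The median log2 fold change of the 6 members was 0.89 in WT and 1.10 in Trem2-/- mice, against -0.04 in each genotype over all genes tested. The same members passed a Benjamini-Hochberg adjusted p-value under 0.05 over all genes, which 15.9% of genes passed in the upward direction in WT and 26.0% in Trem2-/- mice. The fold changes with their intervals are plotted next.

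**Figure D2:**
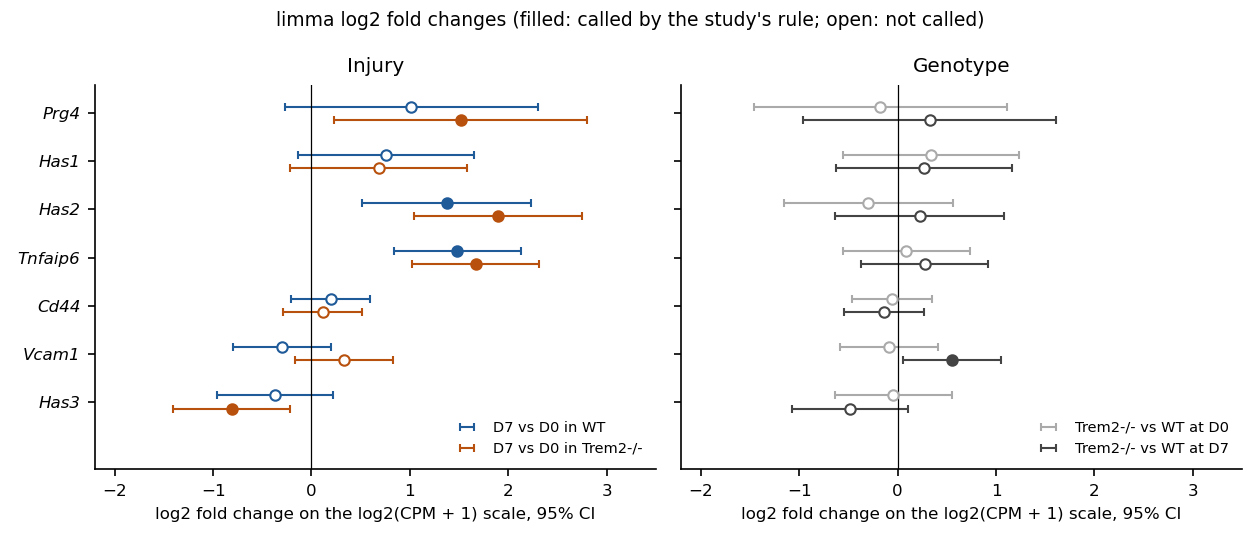
log2 fold change (horizontal axis, on the log2(CPM + 1) scale) with 95% confidence interval from limma for the 6 genes and Has3, for injury on the left and genotype on the right; filled points were called by the rule of the study. Tnfaip6 and Has2 lay above 0 with their whole intervals in both genotypes, and Vcam1 was the only gene called between genotypes, at D7.

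Prg4 (chromosome 1, 150449412 to 150466165 on the minus strand of GRCm38) encodes lubricin. In WT mice it was 6852, 5386, 1039 and 6244 CPM at D0 and 4275, 9604, 10944 and 8853 CPM at D7. The WT groups overlapped, because replicate 1 at D7 lay below 3 of the D0 mice. With Trem2 knocked out it was 1939, 2362, 3252 and 9874 CPM at D0 and 8341, 10890.1, 14124 and 7647 CPM at D7. Here too the groups overlapped, through a single uninjured mouse, replicate 4, that lay above 2 of the injured mice. The log2 fold change was 1.01 in WT (standard error 0.61, limma adjusted p = 0.211) and 1.51 in Trem2-/- mice (standard error 0.61, limma adjusted p = 0.0459). In WT mice the value fell to 0.37 without D0 replicate 3, the mouse with 1039 CPM. The call in Trem2-/- mice was lost without D0 replicate 1, D0 replicate 2 or D7 replicate 3 (log2 fold changes of 1.23, 1.33 and 1.35), and the value was 2.02 without D0 replicate 4. With quantile normalization, which forces the same distribution on each library, the log2 fold change was -0.04 in WT and 0.50 in Trem2-/- mice, so that the direction in WT turned and the call in Trem2-/- mice was lost. In order of mean level the groups ran Trem2-/- D0 (4357 CPM), WT D0 (4880), WT D7 (8419) and Trem2-/- D7 (10251), and each neighbouring pair overlapped. Exons of Prg4 share 204 bases with Tpr on the other strand, and the strand setting of the authors' read counting is not stated.

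Markers of lining fibroblasts, one source of lubricin, were read beside Prg4. None of the 4 measured (Clic5, Hbegf, Htra4 and Tspan15) passed in WT mice, with unadjusted p-values between 0.101 and 0.512 from limma. Htra4 and Hbegf were called higher in Trem2-/- mice (log2 fold changes of 1.53 and 0.83, limma adjusted p = 0.0211 and 0.0381) and Clic5 lower (-0.76, adjusted p = 0.0804 from the same limma fit). Their sum ranged from 356 to 752 CPM at WT D0, 350 to 651 at WT D7, 254 to 683 at Trem2-/- D0 and 527 to 761 at Trem2-/- D7. Hbegf had the highest mean of the 4 in each group, from 217 CPM at Trem2-/- D0 to 376 at Trem2-/- D7. The study reported Hbegf as enriched in a macrophage population of the joint high in Lyve1 and Folr2. The sum and the Hbegf call may therefore not describe fibroblasts alone. Cd55 of that list was not found under that symbol among the genes listed. The Trem2-/- D0 mouse with the most Prg4, replicate 4, also had the highest sum of its group, at 683 CPM, and the WT D0 mouse with the least Prg4, replicate 3, had the lowest, at 356 CPM. WT D0 replicate 2 had nearly the same sum as WT D0 replicate 3, at 368 CPM, but 5386 CPM of Prg4. Trem2-/- D0 replicate 3 had a lower sum than replicate 2 (346 against 512 CPM) but more Prg4 (3252 against 2362 CPM). Chondrocytes at the cartilage surface also secrete lubricin, and all 6 chondrocyte genes were called higher with injury in each genotype. The part of either cell type in the Prg4 result was not tested.

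Has2 (chromosome 15, 56665627 to 56694539, minus strand) is the synthase that produces hyaluronan of very high molecular mass in many tissues. It was 20.2, 4.11, 10.2 and 29.0 CPM in WT D0 mice and 38.4, 37.9, 28.0 and 36.1 CPM in WT D7 mice. The WT groups overlapped by a single pair, in which D0 replicate 4 lay above D7 replicate 3. Without Trem2 the values were 15.1, 10.2, 5.79 and 12.1 CPM at D0 and 34.6, 42.7, 40.4 and 46.5 CPM at D7, so that the lowest injured mouse had more Has2 than the highest uninjured mouse. Such a separation in the upward direction held for 26.1% of all genes tested in Trem2-/- mice. From the difference of mean log2(CPM + 1), Has2 rose 2.59-fold in WT (log2 fold change 1.38, standard error 0.40, limma adjusted p = 0.0211) and 3.72-fold in Trem2-/- mice (1.90, standard error 0.40, limma adjusted p = 0.00121). The ratio of mean CPM was 2.21 in WT and 3.81 in Trem2-/- mice. The two-sided exact permutation test over the mice gave p = 0.0571 in WT and p = 0.0286 in Trem2-/- mice, the smallest p that 4 mice against 4 allow. The order of mean levels was Trem2-/- D0 (10.8 CPM), WT D0 (15.9), WT D7 (35.1) and Trem2-/- D7 (41.1). Neighbours in that order overlapped. Exons of Has2 share 182 bases with Has2os on the other strand.

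Has1 (chromosome 17, 17843323 to 17855205, minus strand), the synthase with the highest level of the 3 in these joints, had a higher mean at D7 in both genotypes and was called in neither. It was 323, 82.8, 153 and 263 CPM at WT D0 and 215, 425, 314 and 313 CPM at WT D7. At Trem2-/- D0 it was 267, 291, 92.4 and 392 CPM, and at Trem2-/- D7 it was 362, 335, 439 and 352 CPM. The coefficient of variation in Trem2-/- mice was 47.8% at D0 and 12.3% at D7, a description over 4 mice each. The log2 fold change was 0.76 in WT (standard error 0.42, limma adjusted p = 0.178) and 0.68 in Trem2-/- mice (standard error 0.42, limma adjusted p = 0.184). Has1 was called in WT without WT D0 replicate 1 (1.04) or Trem2-/- D0 replicate 3 (0.76), and in Trem2-/- mice without D0 replicate 4 (0.94). The value went down to 0.39 in WT without D0 replicate 2 and to 0.25 in Trem2-/- mice without D0 replicate 3. In order of mean level the groups ran WT D0 (205 CPM), Trem2-/- D0 (260.4), WT D7 (317) and Trem2-/- D7 (372), and neighbours overlapped. The D0 mice with the least Has1, WT replicate 2 and Trem2-/- replicate 3, also had the lowest summed fibroblast genes of their groups (6207 and 5218 CPM). The highest values did not go together. WT D0 replicate 4 had the highest sum (49748 CPM) but less Has1 than replicate 1 (263 against 323 CPM). Trem2-/- D0 replicate 4 had the most Has1 (392 CPM), with a sum of 8492 CPM that lay below those of replicates 1 and 2.

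Has3, the synthase that is not a member, stood at the low end of detection, between 1.33 and 6.75 CPM with at least 16 reads in each library. Its log2 fold change was -0.37 in WT (standard error 0.28, limma adjusted p = 0.322) and -0.81 in Trem2-/- mice (standard error 0.28, limma adjusted p = 0.0232). Exons of Has3 overlap those of Chtf8 on the other strand.

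Scaled by exon length, Has1 made up most of the summed synthase level in each of the 16 mice. Its share was 91.5% ± 1.76 at WT D0 and 88.4% ± 3.65 at WT D7, and the groups overlapped (two-sided exact permutation test, p = 0.171). The share of Has1 in Trem2-/- mice was 94.2% ± 1.73 at D0 and fell to 89.1% ± 1.72 at D7, each injured mouse lying below each uninjured mouse (two-sided exact permutation test, p = 0.0286). Over the same mice the share of Has2 rose from 4.62% ± 1.48 to 10.6% ± 1.78 (two-sided exact permutation test, p = 0.0286), and that of Has3 fell from 1.19% ± 0.607 to 0.294% ± 0.0645 (two-sided exact permutation test, p = 0.0286). In WT mice the share of Has2 was 7.01% ± 2.41 at D0 and 11.0% ± 3.40 at D7 (two-sided exact permutation test, p = 0.0857). These shares sum to the whole, so the 12 comparisons made of them are not independent, and 4 of the 12 reached the smallest p. The remaining one of these 4 was the Has3 share at D7, which was 0.598% ± 0.254 for WT and 0.294% ± 0.0645 for Trem2-/- mice (two-sided exact permutation test, p = 0.0286).

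**Figure D3:**
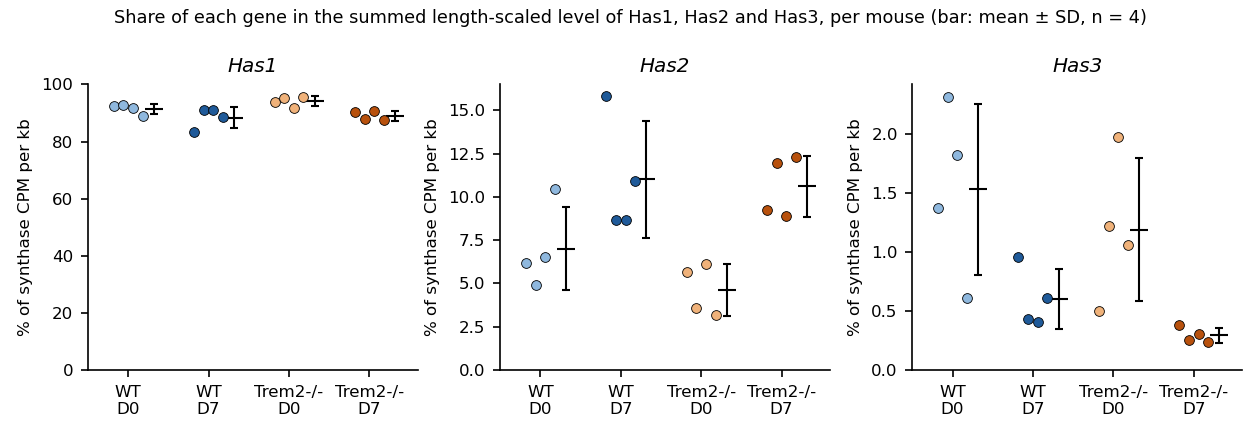
Share (percent, vertical axes of different range, each from 0) of Has1, Has2 and Has3 in their summed CPM per kilobase of exon in each of the 16 mice; points are mice and bars the mean ± SD of 4 mice. Has1 held between 83.2% and 95.8% in each mouse, and in Trem2-/- mice the D0 and D7 values of each synthase did not overlap.

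Tnfaip6 (chromosome 2, 52038009 to 52056686, plus strand), the hyaluronan-modifying protein whose upstream sequence with the AP-1 consensus is given above, was called in both genotypes with no overlap between D0 and D7. It was 176, 78.0, 110 and 286 CPM at WT D0 and 308, 559, 450 and 348 CPM at WT D7, and the groups did not overlap, which held in the upward direction for 12.9% of all genes tested. It was 195, 129, 152 and 145 CPM at Trem2-/- D0 and 509, 456, 576 and 433 CPM at Trem2-/- D7, again with no overlap, which held upward for 26.1% of all genes. From the difference of mean log2(CPM + 1), Tnfaip6 rose 2.80-fold in WT (log2 fold change 1.48, standard error 0.30, limma adjusted p = 0.00368) and 3.18-fold in Trem2-/- mice (1.67, standard error 0.30, limma adjusted p = 0.00038). The ratio of mean CPM was 2.56 in WT and 3.18 in Trem2-/- mice. The order of mean levels was Trem2-/- D0 (155 CPM), WT D0 (163), WT D7 (417) and Trem2-/- D7 (494). The 2 genotypes overlapped on each day, and WT D0 and WT D7 were separated. No exon of another gene overlaps those of Tnfaip6, Has1 or Cd44 in GENCODE M21.

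Cd44 (chromosome 2, 102811141 to 102901665, minus strand), the hyaluronan receptor, is found on leukocytes as well as on fibroblasts and was not called in any comparison. It was 1059, 963, 1163 and 1280.5 CPM at WT D0 and 962, 1222, 1579 and 1399 CPM at WT D7. Trem2-/- mice had 1458, 1121, 841 and 937 CPM at D0 and 1059, 1206, 1124 and 1226 CPM at D7. The log2 fold change was 0.19 in WT (95% interval -0.21 to 0.60, limma adjusted p = 0.453) and 0.11 in Trem2-/- mice (-0.29 to 0.52, limma adjusted p = 0.637), and both turned to -0.02 and -0.03 with quantile normalization. The 4 group means lay between 1089 and 1291 CPM, and each pair of groups overlapped. Set against the mean log2 level of the 6 leukocyte genes in the same library, Cd44 was higher at D7 by 1.16 in WT and 2.05 in knockout joints (two-sided exact permutation test, each p = 0.0286, no overlap). At D7 on that scale it was also higher by 0.56 in the knockout than in the WT (two-sided exact permutation test, p = 0.0286). Macrophage genes, which are a separate list, were mostly higher at D7. The leukocyte mean itself was lower by 0.97, 1.93 and 0.70 on the log2 scale in these 3 comparisons. A gene with no change of its own would lie higher by these amounts relative to the leukocyte genes. The share of all genes separated on that scale was not counted, so these differences do not show a change in Cd44 itself.

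Vcam1 (chromosome 3, 116109949 to 116129688, minus strand) was not called with injury in either genotype. In WT mice it was 181, 119, 156 and 185 CPM at D0 and 100.4, 126, 132 and 160.4 CPM at D7. The knockout mice had 222, 106, 160.3 and 130 CPM at D0 and 138, 247, 159 and 229 CPM at D7. The order of means was WT D7 (130 CPM), Trem2-/- D0 (155), WT D0 (160.4) and Trem2-/- D7 (193), and the groups overlapped in each comparison. The log2 fold change was -0.30 in WT (95% interval -0.80 to 0.20, limma adjusted p = 0.337) and 0.33 in Trem2-/- mice (-0.17 to 0.83, limma adjusted p = 0.244). Vcam1 was called higher in Trem2-/- mice without D0 replicate 1 (0.52). With other mice left out its value went down to 0.17 in Trem2-/- mice (without D0 replicate 2) and lay between -0.44 and -0.19 in WT. The 6 endothelial genes tested beside it, another source of Vcam1, passed in neither genotype (unadjusted p-values from limma between 0.723 and 0.961 in WT and between 0.174 and 0.929 in Trem2-/- mice). Exons of Vcam1 share 61 bases with the antisense gene Gm43109.

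Because general fibroblast genes rose as well, each member was set against the mean log2 level of the 8 fibroblast genes of its own library. That mean was 1.47 higher at D7 than at D0 in WT and 2.48 higher in Trem2-/- mice. The median log2 fold change over all genes tested was -0.04 in each genotype. How many of all genes were separated relative to the fibroblast genes was not counted. A gene with no change between days would lie lower at D7 on this scale, by the rise of the fibroblast mean. Relative to that mean, Tnfaip6 differed by 0.01 between days in WT mice (p = 1 in the two-sided exact permutation test) and Has2 by -0.10 (p = 0.486 by the same exact test), differences smaller than the spread between mice. Only Vcam1 of the 6 was separated in WT, lower by 1.78 (two-sided exact permutation test, p = 0.0286). In Trem2-/- mice all 6 members had a lower mean relative to the fibroblast genes at D7. Has1 (-1.80), Cd44 (-2.37), Tnfaip6 (-0.81) and Vcam1 (-2.15) were separated (two-sided exact permutation test, each p = 0.0286). Has2 (-0.59) and Prg4 (-0.97) were not (two-sided exact permutation tests, p = 0.0571 and 0.314). Of the 28 comparisons made relative to the fibroblast or leukocyte genes, 11 reached this smallest p.

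**Figure D4:**
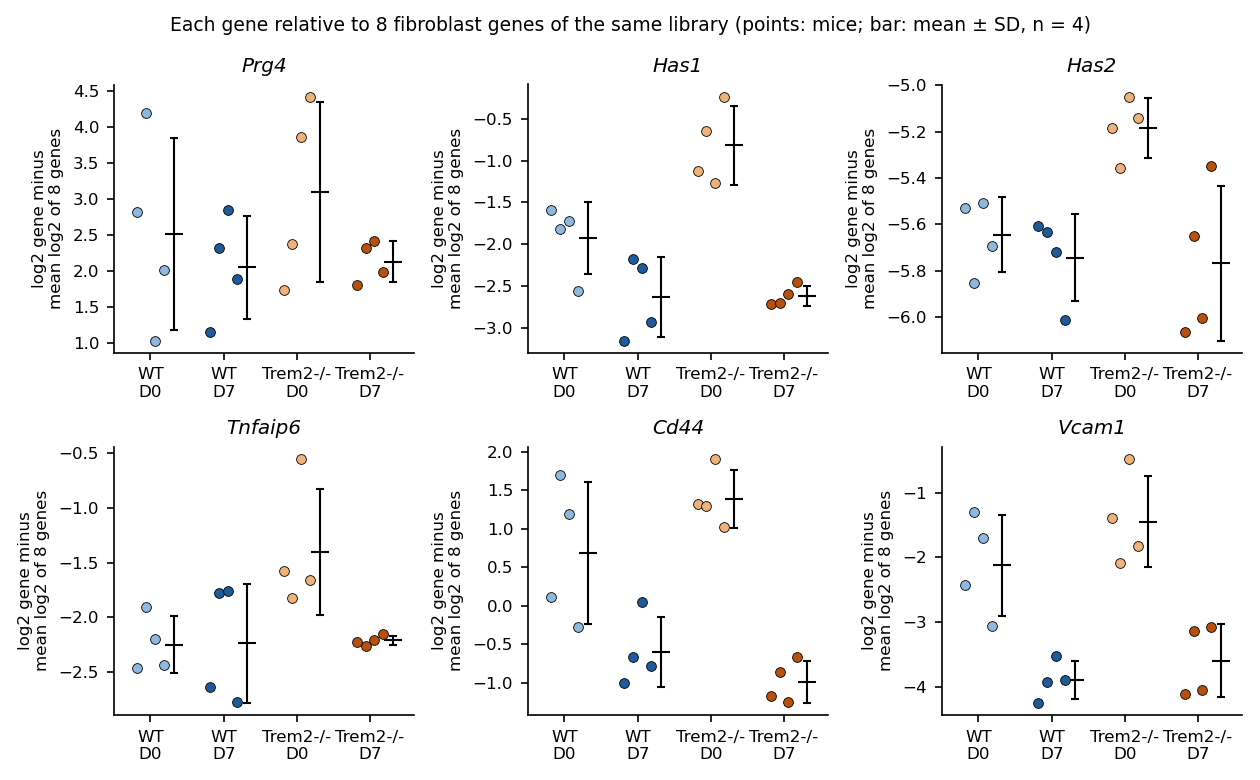
log2(CPM + 1) of each gene minus the mean of the 8 fibroblast genes in the same library (vertical axes of different range) in each of the 16 mice; points are mice and bars the mean ± SD of 4 mice. Vcam1 was lower at D7 than at D0 in both genotypes, while Tnfaip6 was separated between days in Trem2-/- mice and overlapped in WT mice.

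The comparison of Trem2-/- with WT mice asked whether loss of Trem2 changes these genes. At D7, 1 of the 6 members was called, where 1.18% of all genes tested were called higher and 5.72% in either direction. This was Vcam1, at 130 ± 24.6 CPM for WT mice and 193 ± 52.9 CPM for Trem2-/- mice. The log2 fold change was 0.55 (standard error 0.24, unadjusted p = 0.0331 and adjusted p = 0.629 from limma), and the two-sided exact permutation test gave p = 0.0857. The groups overlapped for each of the 6 members, where 8.33% of all genes were separated between genotypes. The call was lost without WT D7 replicate 1 or 2 or Trem2-/- D7 replicate 2 or 4, and relative to the fibroblast genes the difference was 0.30 (two-sided exact permutation test, p = 0.343). The other 5 members had log2 fold changes between -0.14 and 0.33 at D7. Their 95% intervals were widest for Prg4 (-0.96 to 1.61) and narrowest for Cd44 (-0.54 to 0.26). At D7, 5 of 6 leukocyte genes were called lower in the knockout by the rule of the study, with adjusted p-values from limma between 0.451 and 0.674.

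At D0, 0 of the 6 members were called with limma, where 2.15% of all genes were, and none had an unadjusted p-value under 0.05 with limma (2.92% of all genes), edgeR or voom. The log2 fold changes at D0 lay between -0.30 (Has2) and 0.34 (Has1). Has1 was called at D0 without Trem2-/- replicate 3 (0.78) and Has2 without WT replicate 2 (-0.78). Relative to the fibroblast genes, whose mean at D0 was 0.76 lower in the knockout than in WT, Has1 (1.10), Has2 (0.46) and Tnfaip6 (0.85) were higher in the knockout with no overlap (two-sided exact permutation test, each p = 0.0286), and at D7 none of the 6 was separated on that scale. A gene at the same level in both genotypes at D0 would lie 0.76 higher in the knockout on that scale. The share of all genes separated on it was not counted. Of the fibroblast genes, 2 of 8 were called lower in Trem2-/- mice at D0.

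The response to injury was not found to differ between the genotypes for any member. With limma 0 of the 6 interactions were called, where 7.79% of all genes were, and none had an unadjusted p-value under 0.05 (8.16% of all genes), which also held with edgeR and voom. The interaction was largest for Vcam1 (0.64 on the log2 scale, 95% interval -0.07 to 1.34, adjusted p = 0.646 from limma), and was 0.52 (-0.69 to 1.73) for Has2 and 0.50 (-1.32 to 2.32) for Prg4. It was called for Vcam1 without WT D0 replicate 2 (0.77), WT D7 replicate 4 (0.74), Trem2-/- D0 replicate 1 (0.83) or Trem2-/- D7 replicate 1 (0.78), and for Has2 without WT D0 replicate 2 (1.00). The Has2 interaction went down to 0.15 without WT D0 replicate 4, and that of Prg4 ranged from 0.20 without WT D7 replicate 1 to 1.14 without WT D0 replicate 3, uncalled throughout. That Prg4 was called with injury in Trem2-/- mice and not in WT mice is therefore not shown to be a difference between them.

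The other genes of hyaluronan handling and of the partners of these proteins were read from lists in the same fits. Each count of called genes stands against the shares of all genes tested, of which 19.3% were called higher and 18.2% lower in WT and 26.5% and 27.9% in Trem2-/- mice. Of the 8 further genes of hyaluronan synthesis, 4 were called higher in each genotype, 0 lower in WT and 1 (Has3) lower in Trem2-/- mice. The median log2 fold change of the 8 was 0.57 in WT and 0.75 in Trem2-/- mice, against -0.04 over all genes in each. Pgm3, an enzyme of the hexosamine pathway, which supplies one of the sugars of hyaluronan, rose from 11.5 ± 5.31 CPM to 26.3 ± 1.55 in WT mice (log2 fold change 1.20, standard error 0.21, limma adjusted p = 0.00144). The rise in Trem2-/- mice was 1.52 on the log2 scale (limma adjusted p = 4.74e-05). Gfpt1, which catalyses the first step of that pathway, rose by 0.76 in WT and 1.17 in Trem2-/- mice (limma adjusted p = 0.00356 and 3.91e-05). Gnpnat1 of the same pathway was called higher in both genotypes (0.71 and 0.94), but 3952 of its 4735 exon bases overlap other genes, mostly Styx on the other strand. Of the 4487 exon bases of Pgm3, 1270 overlap Dop1a on the other strand. The strand setting is not stated, so reads of these pairs cannot be told apart.

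Genes of hyaluronan breakdown were called higher in 5 of 8 cases in each genotype, with 0 lower and a median log2 fold change of 0.42 in WT and 0.41 in Trem2-/- mice. Cemip, which depolymerises hyaluronan outside the cell, had the largest change. It rose from 31.7 ± 22.9 CPM to 95.4 ± 17.7 in WT (log2 fold change 1.89, standard error 0.45, limma adjusted p = 0.00764) and from 13.0 ± 5.25 to 101 ± 19.4 in Trem2-/- mice (2.92, standard error 0.45, limma adjusted p = 0.000103). Injured and uninjured mice did not overlap for Cemip in either genotype, which held upward for 12.9% of all genes in WT and 26.1% in Trem2-/- mice. In WT 3 of the 5 called genes passed adjustment. With a mouse left out the count went down to 3 in WT (without D0 replicate 2, D0 replicate 3 or D7 replicate 3) and to 2 in Trem2-/- mice (without D0 replicate 2). Of the 5 other hyaluronan receptors, Stab1 and Layn were called higher in each genotype (Stab1 by 1.38 and 0.87, Layn by 1.09 and 1.44 on the log2 scale in WT and Trem2-/- mice), and Lyve1, Stab2 and Hmmr were not called. The median of these 5 was 0.13 in WT and -0.37 in Trem2-/- mice. Stab1 is also a gene of macrophages, whose markers moved with it as given above, and their part in the result was not tested.

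The hyaluronan-binding matrix genes had 12 members tested, of which 5 were called higher in WT and 6 in Trem2-/- mice, with 0 lower and medians of 0.57 and 0.79. Acan, the large proteoglycan of cartilage, rose from 497 ± 519 CPM to 4113 ± 1246 in WT mice (log2 fold change 3.74, limma adjusted p = 0.00248) and by 4.88 in Trem2-/- mice (limma adjusted p = 7.19e-05). Hapln1, the link protein that fastens Acan to hyaluronan, rose by 2.82 and 4.02, and Vcan, its counterpart in soft tissue, by 1.81 and 2.33 on the log2 scale in WT and Trem2-/- mice. The 6 chondrocyte genes moved with Acan and Hapln1, and their sum ranged from 617 to 11011 CPM at WT D0, 25509 to 66352 at WT D7, 963 to 3598 at Trem2-/- D0 and 23542 to 36317 at Trem2-/- D7. Their part in the result was not tested.

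Of the 12 partners of Cd44 and Vcam1, 3 were called higher and 2 lower in WT, and 4 in each direction in Trem2-/- mice, with medians of 0.17 and 0.19, shares near those of all genes in both directions. With a mouse left out the WT counts ranged from 3 to 5 higher (5 without D0 replicate 1) and from 1 to 3 lower (1 without D0 replicate 2 or D7 replicate 4). Mmp14, a membrane protease that cleaves Cd44, rose by 2.18 in WT and 3.78 in Trem2-/- mice (limma adjusted p = 0.00356 and 2.14e-05). Spp1 (osteopontin), a ligand of Cd44, rose by 1.21 and 1.36 on the log2 scale. Itgb7, a leukocyte integrin chain that pairs with Itga4 to bind Vcam1, fell by 1.06 and 1.92 on the log2 scale (limma adjusted p = 0.0151 and 9.05e-05). Itga4 fell by 1.41 in Trem2-/- mice, and at D7 both integrin chains were lower in the knockout (Itgb7 and Itga4, -0.68 and -0.64 on the log2 scale, called without adjustment, adjusted p = 0.627 and 0.674 from limma). Neither chain was called without Trem2-/- D7 replicate 1 or without WT D7 replicate 3.

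Among 9 genes known as regulators of Prg4, 3 were called higher in WT and 5 in Trem2-/- mice, with 0 lower and medians of 0.38 and 0.52. Egfr rose by 1.04 and 1.17, Tgfb2 by 1.01 and 2.13, and the receptor Tgfbr2 by 0.58 and 0.83 on the log2 scale in WT and Trem2-/- mice. Of these, Tgfb2 in WT mice did not pass adjustment (limma adjusted p = 0.112), and with a mouse left out its value ranged from 0.51 without D0 replicate 2 to 1.44 without D0 replicate 4. The WT count ranged from 2 to 5, with 5 without D0 replicate 1 or 4. The 17 genes induced by IL-1 and TNF, the signals by which Tnfaip6 was first found, were read beside it. In WT 1 was called higher (Ptgs2, 0.53) and 6 lower, among them Il6 (-1.16) and Birc3 (-0.59). With Trem2 knocked out 2 were called higher (Cxcl5, 2.35, and Mmp3, 1.56) and 8 lower, among them Birc3 (-1.23) and Tnfaip3 (-1.13). Ptgs2 did not pass adjustment (limma adjusted p = 0.106), and it was not called in 10 of the 16 fits with a mouse left out. The count called lower went down to 3 in WT without D0 replicate 3 and to 5 in Trem2-/- mice without D0 replicate 1, and that called higher in Trem2-/- mice ranged from 1 to 4. The median log2 fold change of the list was -0.31 in WT and -0.19 in Trem2-/- mice.

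**Figure D5:**
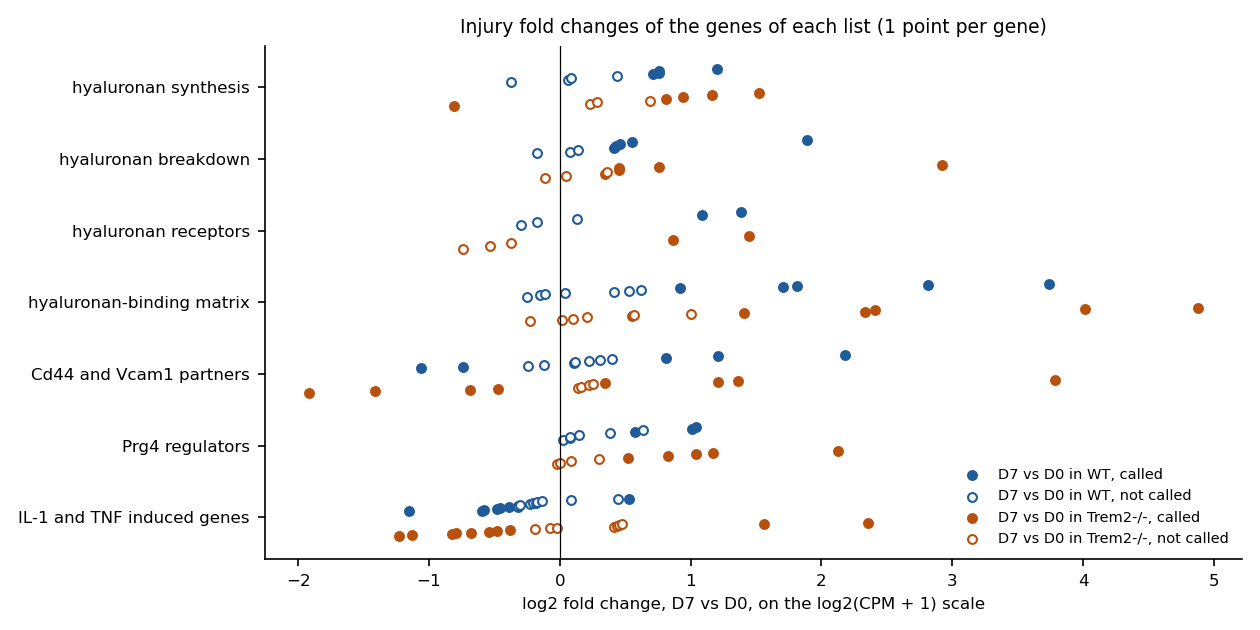
log2 fold change of D7 against D0 (horizontal axis, on the log2(CPM + 1) scale) for each tested gene of 7 lists, in WT (blue) and Trem2-/- (orange) mice; filled points were called by the rule of the study. Genes of hyaluronan breakdown and hyaluronan-binding matrix that were called lay to the right of 0, whereas most called genes induced by IL-1 and TNF lay to the left.

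The genes most like each member over the 16 libraries were found among 10546 genes by Pearson's r on the log2 scale, given as a description because the libraries share their group differences and makeup. Prg4 was most like Htra4, 1 of the 4 lining fibroblast markers measured, at r = 0.92, and also at r = 0.92 once group means were removed. The other lining markers had a lower r with Prg4, which is not reported here. Of these, Hbegf was called higher and Clic5 lower with injury in Trem2-/- mice. Dlx3 and Dph6 came next to Prg4 (each r = 0.87), and neither is on the list of lining markers. Has2 was most like Nectin3 (0.99), Dclk1 (0.98) and Usp13 (0.98), and Tnfaip6 was most like Spsb4 (0.98) and Aga (0.97). Has1 was most like Plac9a (0.94), Cd44 most like Lamp2 (0.88), a protein of the lysosomal membrane, and Vcam1 most like Rrp15 (0.88). Between members the highest r was that of Has2 and Tnfaip6 (0.92, and 0.75 without group means). Has1 and Has2 had r = 0.78 by either measure. Prg4 and Vcam1 had r = 0.07, and Prg4 and Cd44 r = 0.10.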

How the data were processed

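Bulk RNA-seq of knee joint cells from 16 mice was analysed, and groups follow the genotype and injury state in the sample titles. The authors aligned reads to mm10 (STAR), assigned them to genes (featureCounts) and deposited normalized signal values, CPM scaled by TMM factors (edgeR). Tool versions, annotation and strand setting are not given in the sources used here. Each deposited value was a whole multiple of 1 read (100% within 0.05 reads), so reads were recovered for the count tests used as alternatives. A gene listed 2 times with identical values was counted once.

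Values were compared as log2(CPM + 1) by limma 3.58.1 under R 4.3.3, with a mean-variance trend in eBayes and 1 fit of all 16 mice with the 4 groups as a factor. Fold changes on this scale understate those of low genes, and as differences of mean logs they can differ from the ratio of mean CPM. Genes needed at least 1 CPM in at least 4 libraries, and p-values were adjusted by Benjamini-Hochberg over the 13173 genes tested. A gene was called at p under 0.05 and a log2 fold change of size over 0.32. Single values were compared by two-sided permutation, exact over all 70 ways to assign 8 mice (SciPy 1.17.1). Replicates differed by more than sampling noise (chi-square at least 10.4 per degree of freedom). Lengths and positions are union exons of GENCODE M21 (GRCm38), and promoters are from RefSeq (GRCm38.p6), which held 3 of the 6 members. The members and gene lists were chosen with earlier results of these data known. From each list the text names up to 4 called genes with the largest change. Alternatives were pseudocounts of 0.1 and 5, other filters, quantile and median-of-ratios normalization, only the groups compared, no mean-variance trend, replicate number as block, omission of each mouse, recovered reads tested by edgeR 4.0.16 (quasi-likelihood) or voom, and stricter thresholds.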

Additional observations from a re-analysis of the deposited data

Results flagged for a closer look

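Prg4 in Trem2-/- D0 replicate 4 stood apart from the other 3 mice of its group. It had 9874 CPM against 1939 to 3252 CPM, and the gap to the nearest mouse was 0.8345 of the whole range of the group, above the 95% limit of 0.829 for 4 values. It was 1 of 28 groups of 4 values examined, of which chance passes about 1.4. The gap was taken on CPM. On the log2(CPM + 1) scale of the tests the mouse had 13.27 against 10.92 to 11.67, where the gap is a smaller part of the range. Without this mouse the log2 fold change of Prg4 with injury in Trem2-/- mice was 2.02 (limma adjusted p = 0.00945).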

How the results depend on the processing

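The calls of Has2 and Tnfaip6 with injury held in both genotypes under each alternative run, with log2 fold changes of 0.90 to 1.75 (Has2) and 1.19 to 1.81 (Tnfaip6) in WT and 1.58 to 2.07 and 1.59 to 1.79 in Trem2-/- mice. The number of members called with each mouse left out ranged from 2 to 3 with injury in WT, 2 to 4 in Trem2-/- mice, 0 to 1 between genotypes at D7 and at D0, and 0 to 2 for the interaction. It was 0 between genotypes at D7 with a fold change over 1.5 or an adjusted p under 0.05. No pair of groups had each correlation of same-numbered mice over 0.1. For WT D0 and WT D7, however, the correlations were 0.05, 0.20, 0.41 and 0.31. Mice of different number were not set beside them, so this check cannot exclude that the numbers pair the mice. With the replicate number as a block 2, 3, 1, 0 and 0 members were called in the 5 comparisons, as without it. With quantile normalization the log2 fold change turned for Prg4 in WT (-0.0353) and Cd44 in WT (-0.0219) and Trem2-/- mice (-0.0347), for which the cause was not tested. With edgeR on recovered reads Tnfaip6 turned between genotypes at D0 (-0.0677).

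Values within the spread between mice changed sign with mice left out. Cd44 with injury in Trem2-/- mice ranged from -0.00114 to 0.26. Between genotypes at D0, Prg4 ranged from -0.82 to 0.11, Has1 from -0.0303 to 0.78, Has2 from -0.78 to 0.0757, Cd44 from -0.21 to 0.0543, Tnfaip6 from -0.21 to 0.41, Vcam1 from -0.28 to 0.0744 and Has3 from -0.24 to 0.18. Interactions ranged from -0.51 to 0.30 for Has1, -0.21 to 0.0698 for Cd44 and -0.14 to 0.48 for Tnfaip6. Relative to the fibroblast genes in WT injury, Tnfaip6 was -0.00811 with a pseudocount of 5, and with the median of the list Prg4 was 0.0556 and Has2 0.42. Between genotypes at D7 the median of the list gave -0.0321 for Has1 and -0.0226 for Tnfaip6. Scaling alternatives moved the median of all genes by less than 0.1. Depth did not limit the members, the lowest of which had 86 reads.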
